A study of Mus musculus with 5 samples.

Results

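The replication-dependent histone genes were followed in RNA of the mouse forelimb bud. All gene symbols of the count tables that begin with Hist1h, Hist2h, Hist3h or Hist4h were taken, and a gene was kept when it had at least 10 counts in 2 or more libraries. Of 68 such symbols 63 were kept, out of 23284 symbols in all. They were 6 H1, 15 H2A, 17 H2B, 12 H3 and 13 H4 genes, with 50 genes in cluster Hist1, 9 in Hist2, 3 in Hist3 and 1 in Hist4. The other 5 symbols (Hist1h2ao, Hist1h2ap, Hist1h2bq, Hist1h2br and Hist2h2aa2) had 0 counts in every library.

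Total RNA had been sequenced from 5 forelimb samples of untreated embryos, and the series asks what HOX13 proteins do in digit development. The E10.5 group was 1 library of forelimb bud with the strain label CD1 and no mutant allele. The wild-type group was 2 libraries of micro-dissected distal forelimb at E11.5 from a mixed C57BL/6 and CD1 background. The mutant group was 2 libraries of the same region and stage from Hoxa13-/-;Hoxd13-/- embryos of that mixed background. The Hoxa13 allele carries a neomycin cassette in the coding region and the Hoxd13 allele a lacZ gene in exon 1, so these are loss-of-function alleles of the whole embryo and not of the limb alone. Each E11.5 genotype was sampled as 2 independent pools of dissected tissue, and these pools are the replicates. The E10.5 library thus differed from the later ones in stage, dissected region and strain label at once, and these cannot be told apart. In bulk tissue, fewer cells of a type and less RNA per cell cannot be told apart either.

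Core histones H2A, H2B, H3 and H4 form the nucleosome, around which DNA is wrapped, and H1 linker histones bind where DNA enters and leaves it. The genes described here lie in clusters and are transcribed in S phase under the coactivator NPAT. Most of their mRNAs have no poly(A) tail and end in a stem-loop that is bound by SLBP and cut with the help of the U7 snRNP, whereas replication-independent variants such as H3.3 and H2A.Z have ordinary polyadenylated mRNAs. A library made from total RNA after ribosomal RNA depletion, as here, does not select for poly(A) tails.

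The stem-loop is the sequence that sets these transcripts apart, and it was searched in the GENCODE M21 transcripts on the transcript strand, as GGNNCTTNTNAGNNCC. It was present in 43 of 63 histone genes (68.3%) and in 85 of 22500 coding genes (0.378%). Of the 20 histone genes without it, 13 have a model with under 30 bases outside the coding sequence, where there is nearly nothing to search. Among the 50 models with 30 or more such bases it stood in 4 of 6 H1, 8 of 9 H2A, 10 of 13 H2B, 9 of 10 H3 and 12 of 12 H4 genes. Capitals mark the stem-loop with 5 flanking bases on each side, for genes whose values are described further on:
Hist1h1c: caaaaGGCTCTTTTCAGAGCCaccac
Hist3h2a: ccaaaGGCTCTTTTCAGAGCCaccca
Hist3h2ba: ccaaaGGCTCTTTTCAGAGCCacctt
Hist1h2bb: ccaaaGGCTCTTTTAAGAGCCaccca
Hist2h3c1: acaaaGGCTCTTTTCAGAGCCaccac
Hist1h4a: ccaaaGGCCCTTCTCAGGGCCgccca
Hist4h4: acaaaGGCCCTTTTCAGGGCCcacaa
All 12 H4 stems began with GGCCC or GGTCC, and those of the other types with GGCTC. The sequence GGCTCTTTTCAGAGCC was the commonest outside H4, in 3 H1, 7 H2A, 8 H2B and 5 H3 genes.

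Near-identical copies limit what can be said of single genes. Windows of 50 bases, the read length, were compared across all GENCODE transcripts, except those of genes that overlap the gene itself. A unique window can thus still be shared with an overlapping gene. Among the 5 symbols at 0 counts, Hist1h2bq, Hist1h2br and Hist2h2aa2 had 0% of windows to themselves, Hist1h2ao 6.5% and Hist1h2ap 6.9%. Of the 62 genes tested below, 37 had at least 50% unique windows. Reads without a unique alignment were outside the gene counts and made up 9.1 to 14.8% of the lines' sum. At 50% shared windows, 37 of the 63 genes fell into 6 copy groups. In addition, 21 of the 63 overlapped another GENCODE gene on either strand, and since the strand setting of the counting was not given in the sources used here, their counts are uncertain as well.

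Counts in genes totalled 45115494 to 84172202 per library, and histone genes took 2.2% of them at E10.5, 1.29% and 1.25% in the mutants, and 1.38% and 1.57% in wild type. Values below are CPM, which are counts scaled to a common library size, on TMM-scaled library totals. Hoxd13 stood at 45.8 and 38.2 CPM in the mutants against 236 and 242 in wild type. Hoxa13 stood at 46.1 and 38.0 against 48.6 and 46.5, and since its allele is an insertion these counts do not check the labels. All 7 limb mesenchyme markers were detected in every library and summed to 1027 to 1187 CPM. That sum hides opposite moves in the genotype test described below, where 71.4% of the 7 were called (all genes 7.16%). Prrx1 was higher in the mutants (log2 fold change 0.49), and Msx1 (-0.84), Msx2 (-0.925), Lhx9 (-0.42) and Prrx2 (-0.39) were lower. All 8 erythroid markers were detected, at 3943 CPM at E10.5, 2906 and 2846 in the mutants and 2308 and 2289 in wild type. The 5 endothelial markers summed to 146.8 to 237.9 CPM, the 4 macrophage markers to 6.89 to 23.5 and the 6 ectoderm markers to 189 to 229. The 4 neuronal markers summed to 14.3 and 14.4 CPM in the mutants against 34.0 and 40.3 in wild type, and the part of these other cells in the histone values was not tested.

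Levels differed widely between histone genes of a type. Per kb of coding sequence and averaged over the 5 libraries, Hist2h2bb was highest at 2915 CPM per kb, followed by Hist1h4d at 2255, the linker histone Hist1h1a at 2107 and Hist4h4 at 1805. Some of these levels rest on models with overlapping genes: Hist2h2bb overlaps 2 other GENCODE genes. Counts of the whole gene were divided by coding length alone. The GENCODE models of Hist1h4d and Hist4h4 are 1138 and 2863 bases long with 309 coding, so reads outside the coding part can raise their ranks. The variants known from male germ cells ranked lower, with Hist1h2ba at 25.6, Hist1h1t at 6.62 and Hist1h2aa at 0.879 CPM per kb. The Hist1h2ba mean rests on its 41.9 CPM at E10.5. Some other genes were as low, such as Hist1h4m at 0.467 (10.2% unique windows) and Hist2h2aa1 at 1.81 (3.7%). The 10 highest histone genes took 41.8% of histone counts at E10.5 and 54.0 to 55.8% in the E11.5 libraries.

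**Figure D1:**
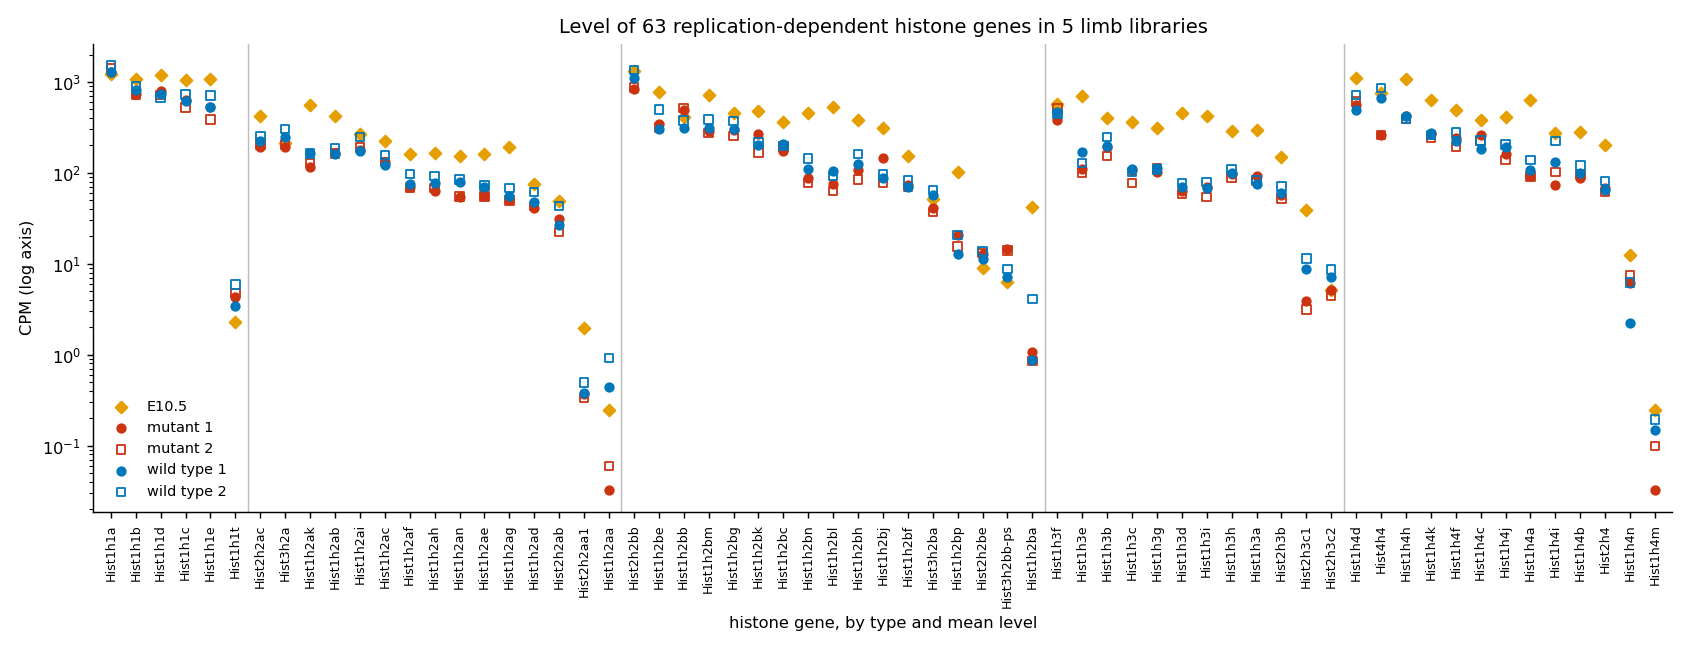
CPM of the 63 histone genes (log axis) in each of the 5 libraries, ordered by type and mean level, with vertical lines between H1, H2A, H2B, H3 and H4. Symbols stand for single libraries. E10.5 lay above the E11.5 libraries for most core histone genes, and Hist4h4 stood at 262 and 261 CPM in the mutants against 661 and 855 in wild type.

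The genotype comparison asks whether histone RNA differs in distal limb without HOX13. Genes were tested with edgeR's quasi-likelihood test, and "rose" and "fell" are used for mutants against wild type at a Benjamini-Hochberg adjusted p below 0.05 over all 16166 genes tested. Of 62 histone genes tested (Hist1h4m did not pass the count filter), 2 rose and 17 fell. That is 30.6% called, where 7.16% of all genes were called, and 27.4% fallen, where 3.34% of all genes fell and 3.82% rose. The median log2 fold change, mutant over wild type, was -0.26 over the histone genes and 0.00 over all genes, and 52 of 62 (83.9%) lay below 0, against 50.2% of all genes. Both mutant libraries lay below both wild-type libraries for 32 of the 62 (51.6%, all genes 25.3%) and above them for 2 (3.23%, all genes 24.0%). Near-identical copies repeat one measurement. With copies joined, 2 of 32 groups rose and 8 fell. Of the 37 genes with at least 50% unique windows 2 rose and 11 fell, and of the other 25 tested 6 fell.

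By type, the fallen genes were all core histones. Among H1 genes 0 of 6 passed the test in edgeR, which at 3.34% of all genes fallen is no result about so few genes. The linker histone gene Hist1h1e stood at 533 and 388 CPM in the mutants against 530.1 and 713.5 in wild type (log2 fold change -0.43, edgeR adjusted p = 0.139). It passed with no count filter, without mutant replicate 1 and without wild-type replicate 1. Of the H2A genes 5 of 15 fell and all 15 had a negative log2 fold change, with a median of -0.35. Of the H2B genes 5 of 17 fell and 2 rose (median -0.28), of the H3 genes 3 of 12 fell (median -0.24) and of the 12 H4 genes tested 4 fell (median -0.18). By cluster, 11 of 49 Hist1 genes fell and 1 rose, and 3 of 9 Hist2 genes fell. Gaps of more than 200 kb in the RefSeq gene order split Hist1 into 3 sub-clusters, in which 5 of 13, 1 of 5 and 5 of 31 tested genes fell. All 3 Hist3 genes and the sole Hist4 gene changed. Whether types or clusters differ from each other was not tested.

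**Figure D2:**
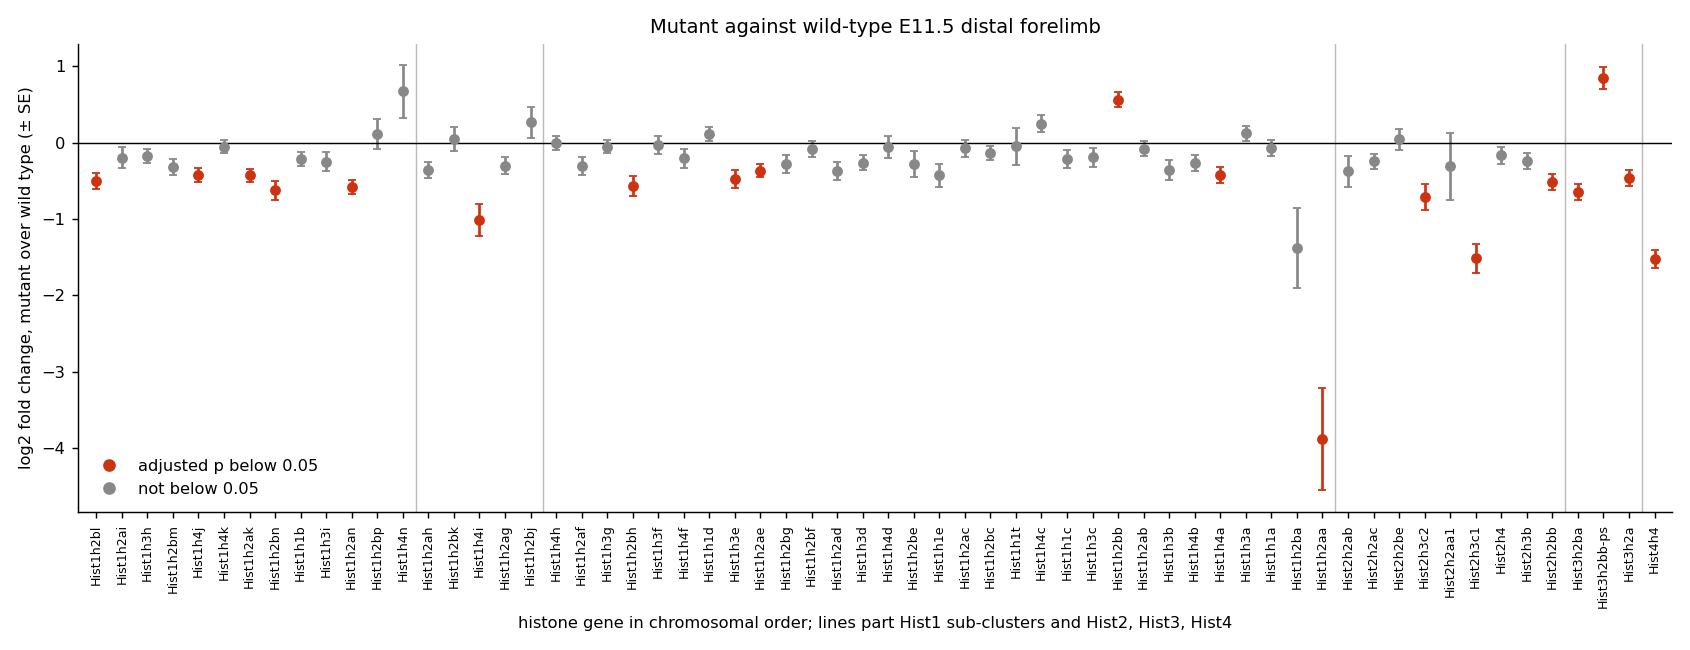
Log2 fold change (mutant over wild type) of the 62 tested histone genes in chromosomal order, with bars of 1 standard error and lines between the Hist1 sub-clusters, Hist2, Hist3 and Hist4. Red marks genes with an adjusted p below 0.05, of which 17 lie below 0 and 2 above.

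Hist4h4, which encodes histone H4 from a locus apart from the large clusters, had the lowest adjusted p of the 19. It stood at 262 and 261 CPM in mutant replicates 1 and 2, at 661 and 855 in wild-type replicates 1 and 2, and at 749.8 at E10.5. Both mutants were thus far below the other 3 libraries, and wild-type E11.5 lay on both sides of E10.5. The mutant mean was 262 ± 0.665 CPM (SD, n = 2) against 758 ± 137, which is -1.53 on the log2 scale (SE 0.12, adjusted p = 1.06e-05 with edgeR's quasi-likelihood test). It has 91.9% unique windows. Its GENCODE model is 2863 bases long with 309 coding, and runs on for 2445 bases after the H4 stem-loop printed above. Most of the Hist4h4 windows thus lie past the stem-loop, and the 91.9% does not describe an mRNA ending there. Of its nearest measured neighbours in the RefSeq gene order, none passed: on the left Gucy2c (0.28, edgeR adjusted p = 0.782) and Plbd1 (-0.63, adjusted p = 0.229), and on the right H2afj (-0.24, 0.268) and Wbp11 (0.28, 0.208). Both mutants lay below both wild-type libraries for Plbd1 and H2afj (all genes 25.3%). They lay above both for Gucy2c and Wbp11 (all genes 24.0%).

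Hist3 is a small cluster with an H2A gene, an H2B gene and an H2B pseudogene. Hist3h2a stood at 193 and 205 CPM in the mutants, 247 and 303 in wild type and 211 at E10.5 (log2 fold change -0.46, SE 0.11, edgeR adjusted p = 0.0209). Hist3h2ba stood at 40.7 and 36.9 against 57.1 and 64.9, with 51.5 at E10.5 (-0.65, SE 0.10, edgeR adjusted p = 0.00221). In both genes the mutants were the lowest of the 5 libraries. The pseudogene Hist3h2bb-ps moved the other way, at 14.7 and 13.9 CPM in the mutants, 7.22 and 8.80 in wild type and 6.35 at E10.5 (0.84, SE 0.14, edgeR adjusted p = 0.0037). Next to the cluster, Rnf187, which encodes a RING finger protein, fell too (-0.42, edgeR adjusted p = 0.0164), while Trim17, which overlaps Hist3h2a on the same strand, had -0.69 (adjusted p = 0.197) and Trim11 had -0.30 (adjusted p = 0.167), and these did not pass.

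In Hist2, a pair of H3 genes and an H2B gene fell. Hist2h3c1 stood at 3.87 and 3.14 CPM in the mutants, 8.68 and 11.4 in wild type and 38.9 at E10.5 (log2 fold change -1.51, SE 0.19, edgeR adjusted p = 0.000427). Its near copy Hist2h3c2 stood at 5.20 and 4.41 against 7.17 and 8.62, with 5.10 at E10.5 (-0.71, SE 0.18, edgeR adjusted p = 0.0308). The copies share the mutant direction and differ at E10.5, where Hist2h3c1 was above all other libraries and Hist2h3c2 lay near the mutants. Joined with Hist2h3b, the group of 3 had a log2 fold change of -0.39 that missed the threshold (edgeR adjusted p = 0.0529). Hist2h2bb had 100% unique windows in its model, a share that leaves out the genes overlapping it. It stood at 846 and 867 CPM in the mutants, 1114 and 1348 in wild type and 1334 at E10.5 (-0.52, SE 0.11, edgeR adjusted p = 0.0107). Hist2h2ac, an H2A gene, had -0.24 and did not pass (adjusted p = 0.163), and Hist2h2be, an H2B gene with a polyadenylated form, had 0.04 (adjusted p = 0.922).

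The single Hist1 gene that rose was Hist1h2bb, an H2B gene. It stood at 497 and 516 CPM in the mutants, 312 and 376 in wild type and 408 at E10.5 (log2 fold change 0.56, SE 0.10, edgeR adjusted p = 0.00538). The mutants were the highest of the 5 libraries. With 59.9% unique windows it was in no copy group with another kept gene.

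Among the 11 Hist1 genes that fell, the H4 gene Hist1h4i had 72.7 and 102 CPM in the mutants, 131 and 224 in wild type and 272 at E10.5 (log2 fold change -1.02, SE 0.21, edgeR adjusted p = 0.0121). Its wild-type libraries were far apart, and DESeq2 gave an adjusted p of 0.184. The H2A gene Hist1h2an was steadier, at 54.1 and 55.2 CPM against 80.2 and 84.3, with 153 at E10.5 (-0.58, SE 0.09, edgeR adjusted p = 0.00164), but only 14.2% of its windows are unique. The H2B gene Hist1h2bn stood at 87.4 and 77.4 against 110.2 and 144, with 452 at E10.5 (-0.62, SE 0.12, edgeR adjusted p = 0.00905), with 13.6% unique windows. The H2A group of 9 copies had a log2 fold change of -0.23 when joined (edgeR adjusted p = 0.262) and the H2B group of 8 had -0.23 (adjusted p = 0.311), so for these copies the calls hold for the symbols as counted and not for the joined group.

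The remaining fallen Hist1 genes had log2 fold changes of -0.57 to -0.37. They were the H2B genes Hist1h2bh (-0.57) and Hist1h2bl (-0.51), the H3 gene Hist1h3e (-0.48), the H2A genes Hist1h2ak (-0.43) and Hist1h2ae (-0.37), and the H4 genes Hist1h4a (-0.42) and Hist1h4j (-0.42). In each of them both mutants lay below both wild-type libraries and E10.5 lay above all 4. Of these, Hist1h2ae and Hist1h2bl belong to the joined H2A and H2B groups just given, Hist1h3e to an H3 group of 9 (-0.16 when joined, edgeR adjusted p = 0.34), and Hist1h4a and Hist1h4j to an H4 group of 6 (-0.08, adjusted p = 0.708). The joined groups missed the threshold. The H2A variant Hist1h2aa, known from testis, was near the limit of detection, with 2 and 3 counts in the mutants, 21 and 52 in wild type and 18 at E10.5. Its summed ratio, wild type over mutant, was 15.9, with a 95% interval of 6.5 to 50.3 that covers counting error only (edgeR adjusted p = 0.0039). The H2B variant Hist1h2ba, also known from testis, stood at 1.06 and 0.849 CPM against 0.870 and 4.07 and did not pass (adjusted p = 0.161), and the H1 variant Hist1h1t had -0.05 (adjusted p = 0.951).

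Polyadenylated forms have been described for 5 of the histone genes, and 2 of these fell, Hist3h2a and Hist4h4. That is 40%, against 27.4% of the histone genes and 3.34% of all genes. Whether these 5 differ from the other histone genes was not tested. The linker histone gene Hist1h1c had a log2 fold change of -0.21 (edgeR adjusted p = 0.333), the H2B gene Hist1h2bc had -0.13 (adjusted p = 0.487), and Hist2h2be is given above.

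Calls for 11 of these 19 genes were lost in at least 1 of the alternatives run. Without mutant replicate 1, Hist1h2ae, Hist1h2ak, Hist1h4a, Hist2h2bb and Hist3h2a were lost, and without mutant replicate 2, Hist1h2ae, Hist1h2bh, Hist1h2bl, Hist1h3e, Hist1h4a, Hist1h4j, Hist2h2bb and Hist2h3c2. Without wild-type replicate 2, Hist1h4a and Hist2h3c2 were lost, and the log2 fold change shrank to -0.23 for Hist1h4a, -0.57 for Hist1h4i, -0.40 for Hist1h2bn, -0.36 for Hist1h2bh and -0.29 for Hist3h2a. Without wild-type replicate 1, Hist1h3e shrank to -0.28, and the count of called histone genes came to 41. Hist1h1b, Hist1h1c, Hist1h2ba, Hist1h2be, Hist1h3d, Hist1h4d and Hist2h2ac then passed as well, as did Hist1h2ba without either mutant replicate. Hist1h2aa, Hist1h2an, Hist1h2bb, Hist1h2bn, Hist2h3c1, Hist3h2ba, Hist3h2bb-ps and Hist4h4 passed in all 11 settings that kept the symbols apart.

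Several of the most abundant genes did not pass. Hist1h1a, an H1 gene, stood at 1284 and 1406 CPM in the mutants, 1297 and 1527 in wild type and 1220.0 at E10.5 (log2 fold change -0.06, edgeR adjusted p = 0.814). Hist1h1b, the H1.5 gene, stood at 746 and 716 against 811 and 892, with 1065 at E10.5 (-0.21, edgeR adjusted p = 0.215). The groups overlap for Hist1h1a and not for Hist1h1b. The H3 gene Hist1h3f (-0.03, edgeR adjusted p = 0.934), the H4 gene Hist1h4d (-0.06, adjusted p = 0.895) and the H2B gene Hist1h2be (-0.28, adjusted p = 0.424) had overlapping groups. A p that misses the threshold does not show that these values were equal.

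Summed over all genes of a type, H4 stood at 2491 and 2418 CPM in the mutants, 2864 and 3501 in wild type and 6230.0 at E10.5, and the mutant mean was 0.771 of the wild-type mean. For H2A the sums were 1344 and 1390.0 against 1525 and 1836, with 3054 at E10.5, a ratio of 0.814. For H3 they were 1281 and 1293 against 1444 and 1474, with 3996 at E10.5, a ratio of 0.882. In these 3 types both mutants lay below both wild-type libraries. The H4 sum rests largely on Hist4h4: without it the sums were 2229 and 2157 against 2203 and 2646, which overlap, with a ratio of 0.904. H2B (3288 and 3042 against 3346 and 4078) also separated, with a ratio of 0.853, whereas H1 (4002 and 3759 against 3999 and 4538) overlapped, with a ratio of 0.909. No p is given for sums over chosen genes. By cluster the mutant to wild-type ratio was 0.904 for Hist1, 0.732 for Hist2 (0.834 without Hist2h2bb), 0.734 for Hist3 and 0.345 for Hist4.

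**Figure D3:**
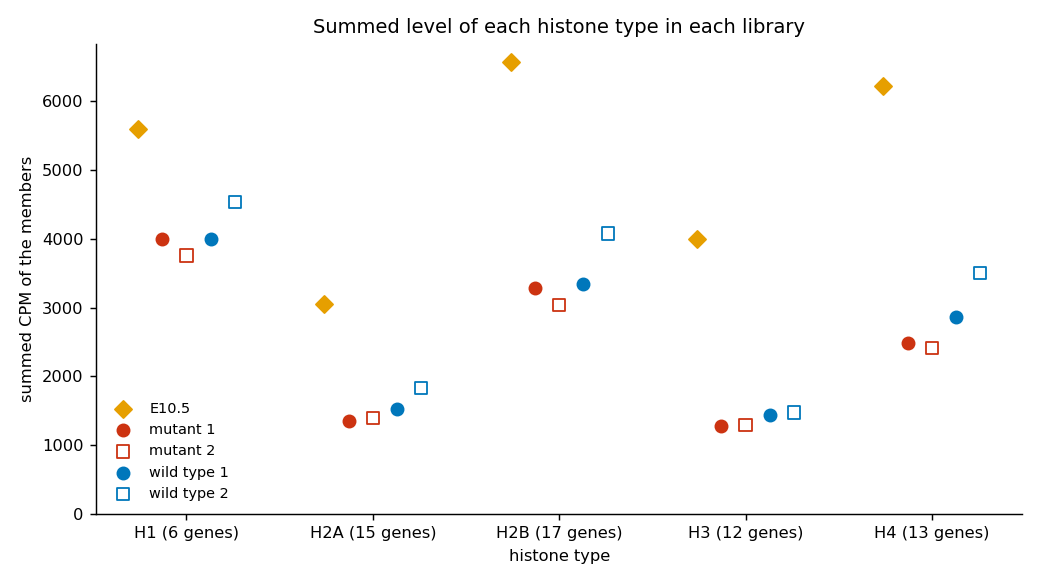
Summed CPM of each histone type in each of the 5 libraries, with 1 point for a library. E10.5 was highest for every type. As a ratio to the wild-type mean it was highest in H3, at 2.74 (3996 against 1444 and 1474 in wild type). The H1 sums of the mutant and wild-type libraries overlapped.

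Promoters were compared because genes of one cluster moved in both directions. RefSeq windows of 250 bases before to 50 after the start were available for 57 of the 63 genes, on GRCm38.p6, and are printed on the gene's strand. Capitals mark the TATA box, searched as TATAAA, the CCAAT box, searched as CCAAT, and the octamer, searched as ATTTGCAT. Both strands were searched, each motif was counted on its own, and matches may overlap. The windows shown are those of the fallen Hist4h4, Hist3h2a, Hist3h2ba and Hist1h2ae and of the risen Hist1h2bb:
Hist4h4, chr6:136804382-136804681, minus strand: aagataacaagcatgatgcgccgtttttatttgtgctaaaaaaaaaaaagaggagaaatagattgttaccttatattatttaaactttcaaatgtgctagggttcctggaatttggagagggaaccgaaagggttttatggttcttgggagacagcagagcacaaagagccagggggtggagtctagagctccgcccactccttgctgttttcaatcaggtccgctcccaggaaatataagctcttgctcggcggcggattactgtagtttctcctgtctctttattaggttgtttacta
Hist3h2a, chr11:58954435-58954734, plus strand: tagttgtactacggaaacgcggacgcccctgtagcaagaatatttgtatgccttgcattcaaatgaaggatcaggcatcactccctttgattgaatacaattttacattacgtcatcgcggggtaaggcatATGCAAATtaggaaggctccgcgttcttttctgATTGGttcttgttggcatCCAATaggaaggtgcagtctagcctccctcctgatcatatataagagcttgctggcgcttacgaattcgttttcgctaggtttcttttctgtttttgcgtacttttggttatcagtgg
Hist3h2ba, chr11:58948661-58948960, plus strand: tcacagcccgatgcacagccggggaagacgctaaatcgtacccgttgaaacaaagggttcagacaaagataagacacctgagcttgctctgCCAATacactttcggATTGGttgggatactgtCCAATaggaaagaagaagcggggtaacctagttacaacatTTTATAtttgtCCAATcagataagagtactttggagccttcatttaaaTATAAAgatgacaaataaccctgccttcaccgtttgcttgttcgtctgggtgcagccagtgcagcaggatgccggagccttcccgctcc
Hist1h2ae, chr13:23571171-23571470, minus strand: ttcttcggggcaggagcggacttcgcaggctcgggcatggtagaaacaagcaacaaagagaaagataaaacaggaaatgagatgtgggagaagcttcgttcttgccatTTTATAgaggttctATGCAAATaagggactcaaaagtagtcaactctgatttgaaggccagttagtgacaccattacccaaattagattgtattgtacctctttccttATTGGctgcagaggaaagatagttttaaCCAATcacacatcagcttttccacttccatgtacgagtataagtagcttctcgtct
Hist1h2bb, chr13:23746484-23746783, plus strand: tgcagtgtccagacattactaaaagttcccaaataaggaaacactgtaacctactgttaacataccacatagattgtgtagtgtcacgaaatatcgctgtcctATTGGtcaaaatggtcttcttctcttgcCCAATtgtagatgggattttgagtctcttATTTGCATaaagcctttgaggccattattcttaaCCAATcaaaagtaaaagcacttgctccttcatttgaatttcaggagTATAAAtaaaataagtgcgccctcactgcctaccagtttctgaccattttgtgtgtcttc
The Hist4h4 window held none of the 3 motifs. Hist3h2a held CCAAT and the octamer, and Hist3h2ba TATAAA and CCAAT. All 3 stood in the windows of 10 histone genes. These include the risen Hist1h2bb, the fallen Hist1h2ae and Hist1h2aa, and genes that did not pass, such as Hist1h2ba and Hist2h2ac. Some of these windows overlap on opposite strands: Hist1h2aa with Hist1h2ba, Hist1h2ae with Hist1h2bg, and Hist1h2ah with Hist1h2bk. The same letters were then counted for both genes, so the 10 are not separate promoters.

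Over the 58 windows of these 57 genes, TATAAA stood in 60.3%, CCAAT in 84.5% and the octamer in 24.1%, against 13.6%, 37.4% and 1.74% of all 32851 promoter windows. The octamer was found in H2A windows (46.7%) and H2B windows (46.7%) and in 0% of H1, H3 and H4 windows. Where H2A and H2B windows overlap, the same match can count for both types. CCAAT stood in 100% of H1, H2A, H2B and H3 windows and in 25.0% of the 12 H4 windows. A match describes the letters of the window and not a bound site.

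Genes that make or handle histone mRNA were examined as further lists. Of 28 histone mRNA processing genes 0 rose or fell in edgeR (all genes 7.16%), with a median of -0.07. In that list 3 had an unadjusted p below 0.05, all lower in the mutants, and DESeq2 called 0. Both mutants lay below both wild-type libraries in 12 of the 28 (42.9%, all genes 25.3%). Slbp, which encodes the stem-loop binding protein, stood at 199 and 213 CPM in the mutants against 204 and 228 in wild type (log2 fold change -0.06, edgeR adjusted p = 0.786). Npat, the coactivator of histone transcription, had -0.19 (adjusted p = 0.248), and its partner Casp8ap2 had -0.06 (0.774). For the U7 snRNP proteins Lsm10 and Lsm11 the values were 0.16 (adjusted p = 0.623) and -0.21 (0.314), and for Zfp473, which binds U7 snRNP, 0.03 (0.95).

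Among 11 replication-independent histone genes 1 rose (9.09%, all genes 3.82%). This was H2afv, an H2A.Z gene, with 153 and 147 CPM in the mutants against 122 and 123 in wild type (log2 fold change 0.30, edgeR adjusted p = 0.0479). The others did not pass, among them H2afz (-0.06, adjusted p = 0.806), H2afx (-0.02, 0.946), the H3.3 genes H3f3a (0.00, 0.997) and H3f3b (0.06, 0.808) and the linker variant H1f0 (-0.08, 0.785). Of 21 chaperone and deposition genes 1 rose (4.76%, all genes 3.82%). This was Hjurp, the chaperone of the centromeric H3 variant, with 20.2 and 18.1 against 14.6 and 10.6 CPM (0.61, edgeR adjusted p = 0.0299). Neither H2afv nor Hjurp passed without mutant replicate 1, H2afv did not pass without mutant replicate 2, and Hjurp did not pass without wild-type replicate 2.

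Of 30 S-phase genes 1 fell (3.33%, all genes 3.34%). This was E2f2, a transcription factor of the G1 to S transition, with 15.5 and 13.3 against 21.9 and 18.4 CPM (log2 fold change -0.48, edgeR adjusted p = 0.0479). It was lost without mutant replicate 2, without wild-type replicate 1, with DESeq2 size factors and with all 5 libraries in the fit. The list's median was -0.10, with 27 of 30 genes below 0. Of these 30, 5 had an unadjusted p below 0.05, all lower in the mutants. Both mutants lay below both wild-type libraries in 16 (53.3%, all genes 25.3%), a share close to the 51.6% of the histone genes. The helicase subunit Mcm2 (-0.18, edgeR adjusted p = 0.327), the clamp Pcna (-0.11, 0.621), the reductase subunit Rrm2 (-0.12, 0.491) and the cyclins Ccne1 (-0.24, 0.147) and Ccne2 (-0.25, 0.18) did not pass. Of 22 G2 and M phase genes 0 changed in edgeR (all genes 7.16%) and in DESeq2, and 0 had an unadjusted p below 0.05. Both mutants lay below both wild-type libraries in 3 of the 22 (13.6%, all genes 25.3%). Their median was -0.03, and the proliferation marker Mki67 had -0.04.

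**Figure D4:**
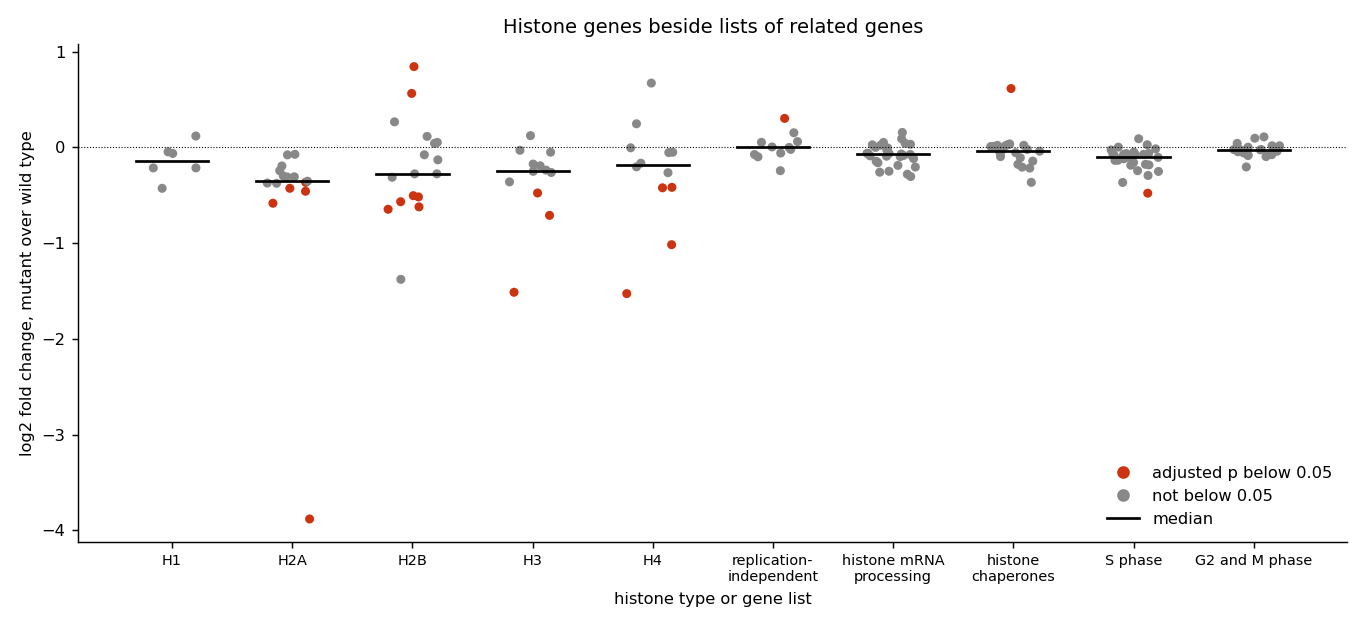
Log2 fold change (mutant over wild type) of single genes in the 5 histone types and in 5 lists of related genes, with a line at each median. Red points have an adjusted p below 0.05 and grey points do not. The medians were -0.14 for H1, -0.35 for H2A, -0.28 for H2B, -0.24 for H3 and -0.18 for H4, and between -0.10 and 0.00 for the lists.

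The E10.5 library was set beside wild-type E11.5 with no p, since it has no replicate. To be called, a gene had to lie 2-fold or more above both wild-type libraries, or below both, on log2 CPM with a prior count of 2. By this rule 27 of 63 histone genes (42.9%) were higher at E10.5 and 0 lower, where 4.03% of all 16738 genes were higher and 12.7% lower, 16.7% in all. The higher genes were 9 of 12 H3, 6 of 13 H4, 7 of 17 H2B, 5 of 15 H2A and 0 of 6 H1 genes. The median difference was 0.97 on the log2 scale (1.96-fold) over the histone genes, 1.64 (3.11-fold) for H3 and 0.49 for H1. Over all genes the median was 0.00. By share of unique windows, 10 of the 37 genes with at least 50% were higher (27%, median 0.80). Of the 26 genes with under 50%, 17 were higher (65.4%, median 1.32). The part of near-identical copies in the difference between types was not tested.

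The H2B variant Hist1h2ba differed most, with 3048 counts at E10.5 against 41 and 231 in wild type and 66 and 43 in the mutants, or log2 differences of 5.53 and 3.35 from the wild-type libraries. Hist1h2bp, an H2B gene, stood at 103 CPM at E10.5 against 12.8 and 20.7 in wild type (3.01 and 2.32). Hist1h3d, an H3 gene, stood at 453 CPM against 69.7 and 77.6 (2.70 and 2.54). All E11.5 libraries were far below E10.5 for the 3 genes.

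Summed levels at E10.5 were 2.74 times wild type for H3, 1.96 for H4, 1.82 for H2A, 1.77 for H2B and 1.31 for H1. As a share of the histone sum per kb of coding sequence, H1 took 13.5% at E10.5, 20.9% and 20.4% in the mutants and 19.4% and 18.7% in wild type. H3 took 15.4% at E10.5 and 9.66 to 11.2% at E11.5. Hist4h4 (0.998 of wild type) and the Hist3 sum (0.782) did not share the higher E10.5 level, while Hist1 stood at 1.93. The genes that fell in the mutants had very different E10.5 levels, from 0.417 of wild type for Hist1h2aa and 0.650 for Hist2h3c2 to 5.33 for Hist1h2bl. Both comparisons use the same wild-type libraries.

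Other RNAs without an ordinary poly(A) tail were set beside the histone genes at E10.5. Rn45s, the ribosomal RNA precursor, stood at 23760.0 CPM at E10.5, 7245 and 6846 in the mutants and 7713 and 6222 in wild type. Rmrp, the RNA of RNase MRP, stood at 7041 CPM at E10.5, 1624 and 1341 in the mutants and 1703 and 2765 in wild type. Terc, the telomerase RNA, stood at 56.3 CPM at E10.5, 20.3 and 16.2 in the mutants and 22.7 and 25.7 in wild type. By the 2-fold rule these 3 were higher at E10.5, as many histone genes were. Rpph1, the RNA of RNase P, stood at 2549 CPM at E10.5 against 2037 and 3080.0 in wild type and was not called, and the nuclear RNA Malat1, at 3256 against 6619 and 6561, was called lower. The part of such RNAs in the histone difference was not tested.

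Of the 30 S-phase genes 0 were 2-fold higher at E10.5, where 4.03% of all genes were. Of these 25 of 30 lay above 0, against 8349 of all 16738 genes, with a median of 0.24. The part of cycling cells in the histone difference was not tested. H2afx, a variant with a stem-loop mRNA form, stood at 469 CPM at E10.5 against 183.0 and 182.5 in wild type.

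**Figure D5:**
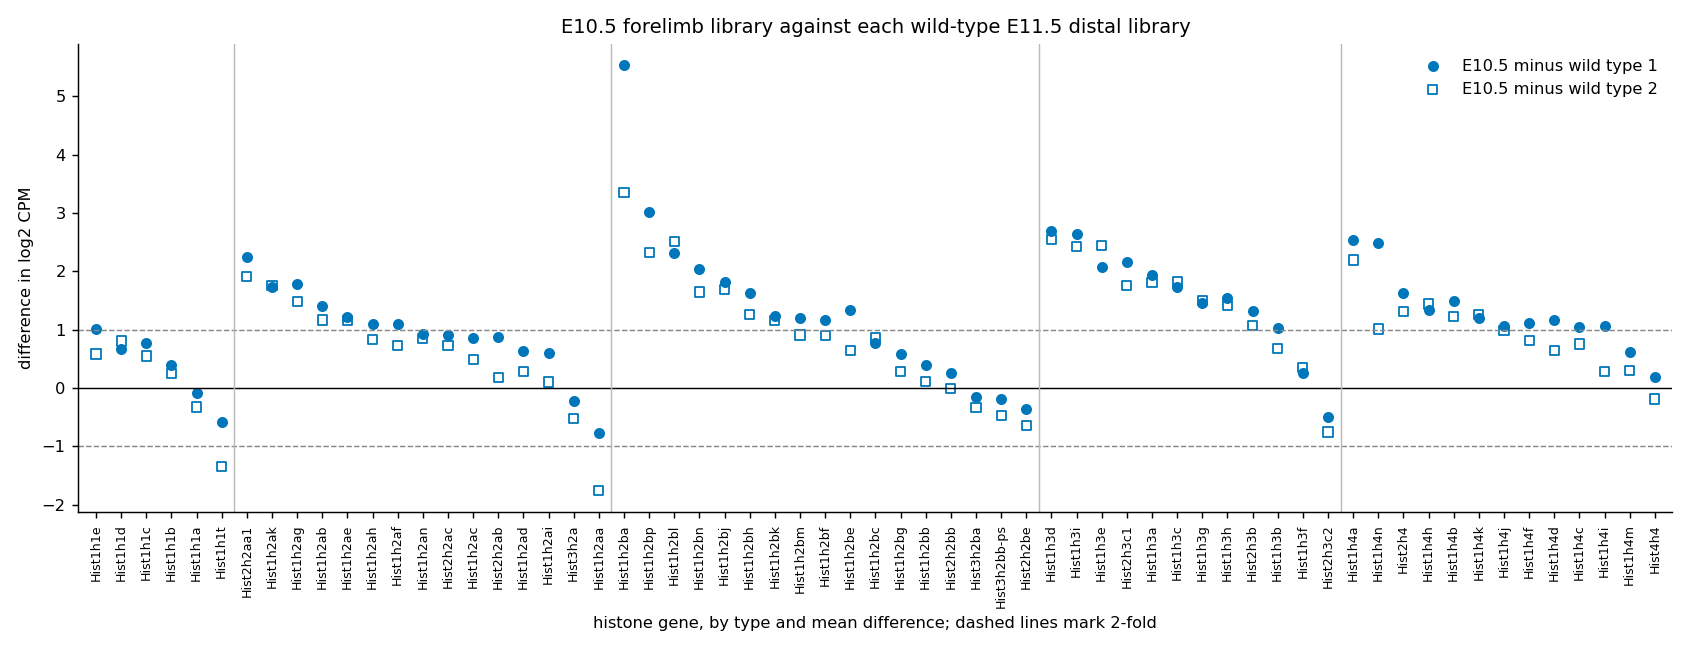
Log2 difference of E10.5 from each wild-type library for the 63 histone genes, by type. Hist1h2ba lies highest at 5.53 and 3.35, and 0 genes reach 2-fold below both wild-type libraries.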

How the data were processed

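The files of 5 forelimb libraries held raw counts, whole numbers of reads for each symbol, as the authors deposited them. TopHat2 2.0.13, SAMtools, HTSeq, Cufflinks 2.1.1 and the genome mm9 are named in the submitters' processing notes. HTSeq's strand mode, gene models and filters are settings not given in the sources used here. Stranded TruSeq libraries were made from total RNA after Ribo-Zero depletion, per the labels' protocols. HTSeq's total lines were left out: no-feature reads made up 24.3 to 39.6% of the lines' sum.

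Mutant and wild type (2 libraries each, genotype as the only term) were compared in edgeR 4.0.16 (R 4.3.3) after filterByExpr (minimum count 10, minimum total 15) and TMM scaling, with the quasi-likelihood F test and Benjamini-Hochberg adjustment over all genes. The fit was tested on simulated data. SE was the absolute log2 fold change divided by the square root of F. Alternatives were other scalings, filters and quasi-likelihood settings, DESeq2 1.42.0, all 5 libraries, the replicate block, and each replicate left out. CPM used TMM factors of all 5 libraries.

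Names and gene order came from a RefSeq GRCm38.p6 table (67 of 68 symbols matched), promoters from RefSeq GRCm38.p6, and transcripts, coding lengths and windows from GENCODE M21, which is not the build of the files. Named genes were all called histone genes, the 2 highest of each type and the 3 largest E10.5 differences. Called genes of the lists of related genes were named too, as were preset regulators, variants, polyadenylated forms and testis forms. Of the called cell type markers, only those of limb mesenchyme were named. Hist1h1e, genes neighbouring called clusters and RNAs set beside the E10.5 difference were added after values were seen. Histone genes and lists were chosen with earlier results of these data known. Depth of 45115494 to 84172202 counts leaves genes of a few counts imprecise.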

Additional observations from a re-analysis of the deposited data

How the results depend on the processing

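No called histone gene changed sign in any setting. The count of called histone genes was 19 and ranged from 13 to 41 when a library was left out (2 to 4 risen, 10 to 39 fallen), against 796 to 2018 of all genes (410.0 to 1113 risen, 373 to 905 fallen). Under the same omissions the lists ranged from 0 to 3 calls for histone mRNA processing, 0 to 1 for replication-independent histones, 0 to 3 for chaperones and 0 to 3 for S phase. With no count filter 1762 genes were called, 959 of them risen, with 28 histone genes, 2 mRNA processing, 2 chaperone and 2 S-phase genes. The S-phase count was 0 with DESeq2 size factors and with all 5 libraries. With the replicate block, 21 histone genes and 1 mRNA processing gene were called. The replicate numbers do not pair the pools (correlation of deviations -0.0243).

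With near-identical copies joined, an alternative chosen after seeing the data, 10 groups were called and 8 fell. At 1.5-fold, 41 histone genes were higher at E10.5 and 1 lower, with 1720.0 and 3201 of all genes. With a wild-type library left out these counts were 27 to 39 and 0 to 2, and 897 to 1012 and 2427 to 2821. Without TMM, which shifts the median of all genes to -0.26, the log2 E10.5 to wild-type ratio of the sums was 0.14 for H1, 0.61 for H2A, 0.58 for H2B, 1.20 for H3 and 0.72 for H4. With TMM kept and each type's highest gene left out, the E10.5 to wild-type value was 0.62 for H1, 1.09 for H2B and 1.78 for H3. The H3 mutant to wild-type value was then -0.25. Without Hist4h4, a choice made after seeing the data, the H4 sum had -0.14 for mutant to wild type and 1.18 for E10.5 to wild type. With a library left out, an alternative also chosen after seeing the data, the sums' log2 mutant to wild-type ratios were -0.23 to -0.04 for H1, -0.42 to -0.16 for H2A, -0.37 to -0.08 for H2B, -0.20 to -0.17 for H3 and -0.51 to -0.22 for H4. The cause of these moves was not tested.

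Reversals were confined to uncalled genes. H3f3a had 0.009 with upper-quartile scaling and 0.002 with the replicate block, and Hist1h1t had 0.003 with the block. With 1 library left out, values ran from -0.18 to 0.068 for Hist1h1a, -0.38 to 0.41 for Hist1h1t, -2.08 to 0.16 for Hist1h2ba, -0.59 to 0.13 for Hist1h2be, -0.19 to 0.52 for Hist1h2bp, -0.10 to 0.20 for Hist2h2be, -0.25 to 0.16 for Hist1h3f and -0.30 to 0.24 for Hist1h4d. They ran from -0.12 to 0.13 for H3f3a, -0.030 to 0.16 for H3f3b, -0.13 to 0.015 for H2afz, -0.18 to 0.12 for H2afx, -0.23 to 0.069 for H1f0, -0.15 to 0.027 for Slbp, -0.037 to 0.10 for Zfp473 and -0.21 to 0.009 for Pcna.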
